A study of Mus musculus with 2 samples.

Results

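The data describe the transcripts of 9 chemokine receptors, Ccr2, Ccr4, Ccr6, Ccr8, Ccr9, Cxcr3, Cxcr4, Cxcr5 and Cxcr6, in regulatory T (Treg) cells. They were taken by name from the 16098 genes of a single-cell count table, and all 9 were present. Treg cells are CD4 T cells that carry the transcription factor Foxp3 and restrain immune responses. The study asked what Treg cells look like long after Foxp3 was restored to them in mice with autoimmune disease. Control cells came from 5 pooled male mice with the genotype Foxp3DTR-GFP/yCd4creERT2, in which Foxp3-expressing cells carry a diphtheria toxin receptor and GFP. Rescued cells came from 4 pooled male mice with the genotype Foxp3LSL/yCd4creERT2, in which a stop cassette blocked Foxp3 until Cre removed it. Both kinds of mice were on the C57BL/6 background, carried the R26Tom recombination reporter (tdTomato) and a tamoxifen-dependent Cre driven from the Cd4 locus, and received 4-hydroxytamoxifen on postnatal day 14. Double-sorted GFP+ cells were taken from spleen and lymph node at 7 months. In rescued mice every GFP+ cell therefore descended from cells recombined in a narrow window, whereas control mice could add new Treg cells throughout life, so genotype, disease history and cell age cannot be told apart between the groups.

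Each group was 1 library of 3′-end tags counted by unique molecular identifier (UMI). The control library held 3634 cells and 15446201 UMIs and the rescued library 3390 cells and 15537656 UMIs, with medians of 3739.5 and 3846.5 UMIs per cell and median mitochondrial shares of 9.43% and 9.06%. The libraries shared 3 cell barcodes. Of the Treg markers, Cd3d was at 1491 CPM (UMIs of a gene scaled to the library total) in control and 1527 CPM in rescued cells and Ikzf2 at 1267 and 1661 CPM, while Foxp3 was at 80.9 and 468 CPM from alleles that were engineered differently. Some markers of other cells were at or near 0 in control and rescued cells. Ms4a1 was at 0 and 0.901 CPM, Lyz2 at 0.388 and 1.03, Cd8a at 0.0647 and 0.0644 and Hbb-bs at 0 and 0.708. Other listed markers were higher, with Cd79b at 36.1 and 48.1 CPM, Cst3 at 166 and 199 and Cd8b1 at 17.8 and 16.4. With 1 library per group there is no test of any difference. Every interval below is a 95% interval for counting error only and holds nothing of the spread between mice or libraries. Intervals of levels and of their ratios also take each UMI as separate. They leave out the spread between cells and are too narrow where positive cells hold several UMIs.

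Chemokine receptors are seven-helix proteins that couple to inhibitory G proteins and steer cells along gradients of chemokines bound to vessel walls and matrix. Cxcr3 and Ccr2 lead T cells into inflamed tissue, Cxcr6 holds them near cells that display Cxcl16, Ccr9 leads to the small intestine and Ccr6 to mucosal sites, Ccr4 and Ccr8 are linked to skin and to activated Treg cells, Cxcr5 leads to B cell follicles and Cxcr4 answers Cxcl12 in marrow and lymphoid stroma. In Treg cells several of these receptors, though not all, are commonly gained as cells leave the resting, recirculating state.

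Rescued Treg cells carried more transcript of 7 of the 9 receptors than control cells, with Ccr9, Ccr4, Cxcr3 and Ccr2 each more than 2-fold higher, and less of Cxcr4 and Cxcr6. With the cell clusters described below weighted alike in both libraries, the directions of Ccr2 and Ccr6 turned, to log2 ratios of -0.31 and -0.12. Among the 8 receptors with at least 100 UMIs over both libraries, 5 were higher in rescued cells past 1.5-fold, 1 was lower and 2 lay within that range. Over all 9779 genes with as many UMIs, 7.85% lay past 1.5-fold, 5.15% higher and 2.7% lower. Past 2-fold, 4 of the 8 were higher and 0 lower, where 1.72% and 0.992% of all these genes were. The median log2 ratio of those 8 receptors was 0.82, and that of all these genes was 0.024, with 5th and 95th percentiles of -0.42 and 0.59. Summed over the 9 receptors, the level was 333 CPM in control and 592 CPM in rescued cells. The order of the levels differed as well. Because UMIs mark transcript ends, these levels were compared between genes without a length correction. In control cells Cxcr4 (97.9 CPM) and Cxcr3 (84.7 CPM) led, followed by Ccr2 (34.2), Cxcr5 (33.0) and Ccr6 (29.3), of which each neighbouring pair had overlapping intervals, then Ccr9 (24.9), Ccr4 (15.02), Cxcr6 (12.2) and Ccr8 (2.20), where the intervals of Ccr9 and Ccr6, and of Ccr4 and Cxcr6, also overlapped. In rescued cells Cxcr3 (215 CPM) led, followed by Ccr9 (110) and Ccr2 (69.6), and then by Cxcr4 (53.7) and Cxcr5 (50.5), and by Ccr6 (41.0) and Ccr4 (39.1), 2 pairs with overlapping intervals. Cxcr6 (9.27 CPM) and Ccr8 (3.99 CPM) closed the order. The study had itself drawn attention to Cxcr3, Ccr4 and Ccr6 on these libraries, so their direction is not independent evidence.

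**Figure D1:**
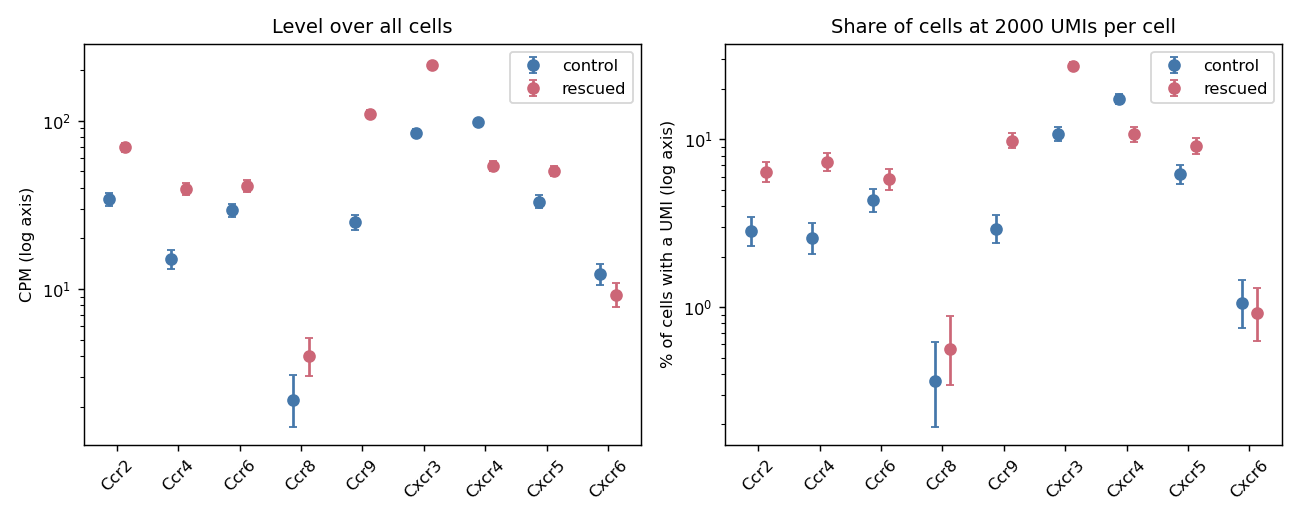
Level of the 9 receptors in CPM (left, log axis) and percent of cells with a UMI after thinning every cell to 2000 UMIs (right, log axis) in the control and rescued libraries; bars are 95% intervals for counting error. Ccr9 stood at 24.9 CPM in control and 110 CPM in rescued cells, and Cxcr4 at 97.9 and 53.7 CPM.

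Cxcr3, the receptor of interferon-induced Cxcl9 and Cxcl10, lies at chromosome X, 101731535 to 101734147 (GRCm38.p6, RefSeq, as for all positions below). It gave 1308 UMIs in 625 control cells and 3344 UMIs in 1394 rescued cells. That is a log2 ratio of 1.35 (1.25 to 1.44), and as counted 17.2% of control and 41.1% of rescued cells held a UMI. Since a share of cells depends on depth, all cells were also thinned to 2000 UMIs, and 65 control and 33 rescued cells below that depth were dropped. The share of cells with Cxcr3 was then 10.8% (9.84 to 11.9) in control and 27.3% (25.8 to 28.9) in rescued cells. Ccr2, the receptor of the monocyte chemokine Ccl2 (chromosome 9, 124101918 to 124109140), gave 528 UMIs in control and 1081 in rescued cells, a log2 ratio of 1.03 (0.87 to 1.18). Few cells carried it, 2.83% of control and 6.40% of rescued cells at 2000 UMIs, but each held many UMIs, 3.52 and 3.56 per positive cell as counted. The libraries thus differed in the share of positive cells, with close mean UMIs per positive cell, and the Ccr2 ratio turned to -0.31 with clusters weighted alike. Cxcr6, the receptor of membrane-bound Cxcl16 (chromosome 9, 123806477 to 123811754), was rarer. It gave 189 UMIs in 63 control cells and 144 UMIs in 58 rescued cells, a log2 ratio of -0.40 (-0.72 to -0.080). Positive cells held 3.00 and 2.48 UMIs on average, and as counted 1.73% of control and 1.71% of rescued cells were positive. The shares of Cxcr6-positive cells at 2000 UMIs were 1.07% (0.755 to 1.46) and 0.923% (0.628 to 1.31), whose intervals overlapped. Its gene lies within Fyco1 on the opposite strand, and how the counting used strand is not given in the sources used here.

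The gut receptors differed in size of effect. Ccr9, the receptor of Ccl25 (chromosome 9, 123767211 to 123783457), gave 385 UMIs in 183 control cells and 1705 UMIs in 408 rescued cells. Its log2 ratio of 2.14 (1.98 to 2.30) was the highest of the 9. At 2000 UMIs the share of cells with Ccr9 was 2.94% (2.41 to 3.55) in control and 9.83% (8.84 to 10.9) in the rescued library. Positive cells also held more of it, 2.10 UMIs on average in control and 4.18 in rescued cells, and the richest cell had 13 and 30 UMIs. Of the Ccr9-positive cells as counted, 44 control and 234 rescued cells had 3 or more UMIs. The GENCODE model of Ccr9 (vM21) reaches from 123678439 to 123784330 and overlaps Lztfl1 on the opposite strand. Lztfl1 was at 60.2 and 120 CPM in control and rescued cells, and its part in the Ccr9 count was not tested. Ccr6, the receptor of Ccl20 (chromosome 17, 8236041 to 8258519), gave 453 and 637 UMIs, a log2 ratio of 0.48 (0.31 to 0.66) that stayed within 1.5-fold. Its share at 2000 UMIs was 4.34% (3.70 to 5.06) in control and 5.78% (5.01 to 6.62) in rescued cells.

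Of the skin-associated receptors, Ccr4, which binds Ccl17 and Ccl22 (chromosome 9, 114490316 to 114505476), gave 232 UMIs in control and 608 in rescued cells, a log2 ratio of 1.38 (1.16 to 1.61). At 2000 UMIs 2.58% (2.08 to 3.15) of control and 7.33% (6.47 to 8.26) of rescued cells held it. Most positive cells had a single UMI, 160 of 187 in control and 387 of 480 in rescued cells. Ccr8, which binds Ccl1 (chromosome 9, 120092133 to 120094906), gave only 34 and 62 UMIs and so stayed under the minimum of 100. Its log2 ratio was 0.86 (0.23 to 1.51). As counted, 0.853% of control cells and 1.65% of rescued cells held it, while Cxcr2, a receptor of neutrophils, was in 0.688% and 0.619% of them. At 2000 UMIs the Ccr8 shares were 0.364% (0.194 to 0.622) and 0.566% (0.341 to 0.882), and no difference was detectable at this depth.

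The receptors of lymphoid tissue went in opposite directions. Cxcr4 (chromosome 1, 128588199 to 128592299) was the only member lower past 1.5-fold. It gave 1512 UMIs in 1067 control cells and 835 UMIs in 647 rescued cells, a log2 ratio of -0.87 (-0.99 to -0.74). At 2000 UMIs 17.4% (16.2 to 18.7) of control cells held it, as did 10.7% (9.70 to 11.8) of rescued cells. Of the heat shock and immediate early genes, Hspa1a was at 41.3 CPM in control and 18.2 CPM in rescued cells and Hspa1b at 111 and 55.3 CPM, while Jun was at 355 and 337 CPM and Fos at 22.6 and 30.8 CPM. Their part in the Cxcr4 difference was not tested. Cxcr5, the receptor of the follicle chemokine Cxcl13 (chromosome 9, 44511787 to 44526444), gave 510 and 784 UMIs, a log2 ratio of 0.61 (0.45 to 0.78), just past 1.5-fold. Its share at 2000 UMIs was 6.22% (5.45 to 7.06) in control and 9.12% (8.16 to 10.1) in rescued cells. The end of its gene overlaps that of Bcl9l on the opposite strand.

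Rescued cells more often held several of these receptors at a time. Whether this goes beyond what the higher shares of single receptors would give was not tested. At 2000 UMIs per cell, 38.7% of control and 57.4% of rescued cells had at least 1 of the 9. Cells with 2 or more made up 8.18% (7.30 to 9.13) of 3569 control cells and 17.2% (16.0 to 18.5) of 3357 rescued cells, and 5 was the highest number found in a cell of either library. The mean was 0.486 receptors per control cell and 0.780 per rescued cell. As counted, without thinning, the shares with 2 or more were 20.03% and 37.6%.

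**Figure D2:**
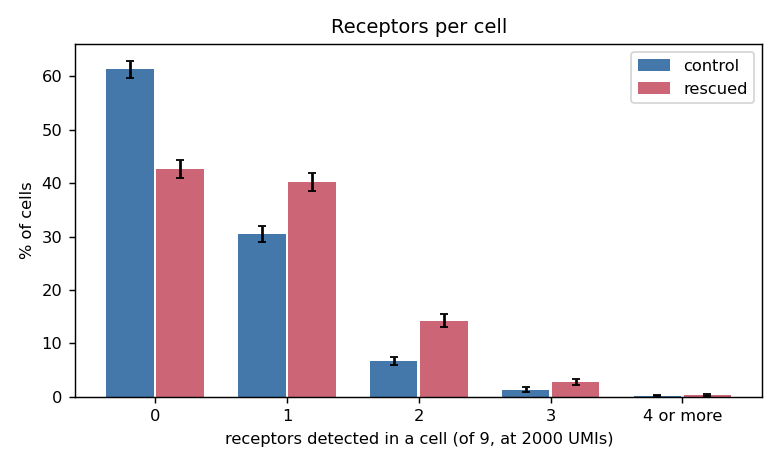
Percent of cells (bars, with 95% binomial intervals) in which 0, 1, 2, 3 or at least 4 of the 9 receptors were detected after thinning to 2000 UMIs, in control and rescued libraries. Cells with none were 61.3% of the control and 42.6% of the rescued library.

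Which receptors shared a cell was asked for all 36 pairs in each library, by setting the number of cells with both against the number that their separate shares would give if unrelated. Cells of 1 library share their source and the receptors share its depth, so these ratios are descriptions. Pairs of other genes of like levels were not counted, so how often such pairs stand out was not tested. The intervals are read pair by pair, without allowance for the number of pairs. Ccr2 and Cxcr6 were found together far more often than their shares give. In control cells 18 cells held both where 1.08 would be given, 16.7 times as many (9.92 to 26.5), and in rescued cells 14 cells against 1.99, 7.05 times as many (3.86 to 11.8). Of 38 Cxcr6-positive control cells, therefore, 18 also had Ccr2, and of 31 rescued ones, 14. Ccr4 and Ccr6 formed the only other pair above in both libraries, with 13 cells against 4.00 in control (3.25 times, 1.73 to 5.56) and 24 against 14.2 in rescued cells (1.69 times, 1.08 to 2.51), although in control cells at 1000 UMIs it rested on 2 cells (2.06 times, 0.249 to 7.44). After thinning, Cxcr5 and Cxcr6 were not found together in any cell of either library. There 2.36 and 2.83 cells would be given, and both intervals held 1. As counted, without thinning, 4 control cells held both against 7.18 (0.557 times, 0.152 to 1.43). In rescued cells as counted it was 9 cells against 10.6 (0.846 times, 0.387 to 1.61).

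The remaining pairs above their expected number differed between the libraries. In control cells the interval lay above 1 for 7 pairs and below 1 for none, and 4 of the 7 held Ccr2: Ccr2 with Cxcr6, Ccr4 (5.76 times), Ccr6 (3.42 times) and Cxcr3 (2.28 times). Cxcr6 was also above with Ccr4 (5.10 times, on 5 cells) and Cxcr3 (2.91 times). At 1000 UMIs the intervals held 1 for Ccr4 with Cxcr6 (2 cells, 0.911 to 27.2) and Ccr2 with Ccr4 (3 cells, 0.799 to 11.3). Those of Ccr2 with Cxcr6, Ccr6 and Cxcr3, and of Cxcr6 with Cxcr3, stayed above 1. In rescued cells 5 pairs lay above and 5 below. Ccr9 was found with Ccr4 in 42 cells against 24.2 (1.74 times, 1.25 to 2.35) and with Cxcr6 in 13 cells against 3.05 (4.27 times, 2.27 to 7.29). Cxcr4 was found with Cxcr5 in 50 cells against 32.8 (1.52 times, 1.13 to 2.01), but at 1000 UMIs its interval held 1 (1.27 times, 0.678 to 2.18). Below their expected number were Ccr2 with Ccr9 (0.568 times), Cxcr4 (0.520 times) and Cxcr5 (0.510 times), and Cxcr4 with Ccr6 (0.433 times) and Ccr9 (0.565 times). These rest on few cells, and at 1000 UMIs per cell none of the 5 intervals lay below 1, with Ccr6 and Cxcr4 at 1.07 times (0.429 to 2.20). As counted, without thinning, Ccr6 with Cxcr4 was at 0.852 times (0.666 to 1.07) and Ccr2 with Cxcr4 at 0.982 times (0.744 to 1.27). Cells with Ccr2 or Cxcr6 held many UMIs, as did cells with Ccr4, Ccr6 or Ccr8. Before thinning, Ccr2-positive cells had medians of 5058.5 UMIs in control and 5258 in rescued cells, against 3713 and 3765.5 without it. Cxcr6-positive cells had 5168 and 4699, Ccr6-positive cells 4829.5 and 4728, Ccr4-positive cells 4510 and 4774 and Ccr8-positive cells 4514 and 6070. Cxcr4-positive cells, at 3738 and 3889, were close to cells without it, at 3740 and 3833. Without the 3.5% of cells with the highest doublet scores the counts were 7 above and 0 below in control and 5 above and 4 below in rescued cells.

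**Figure D3:**
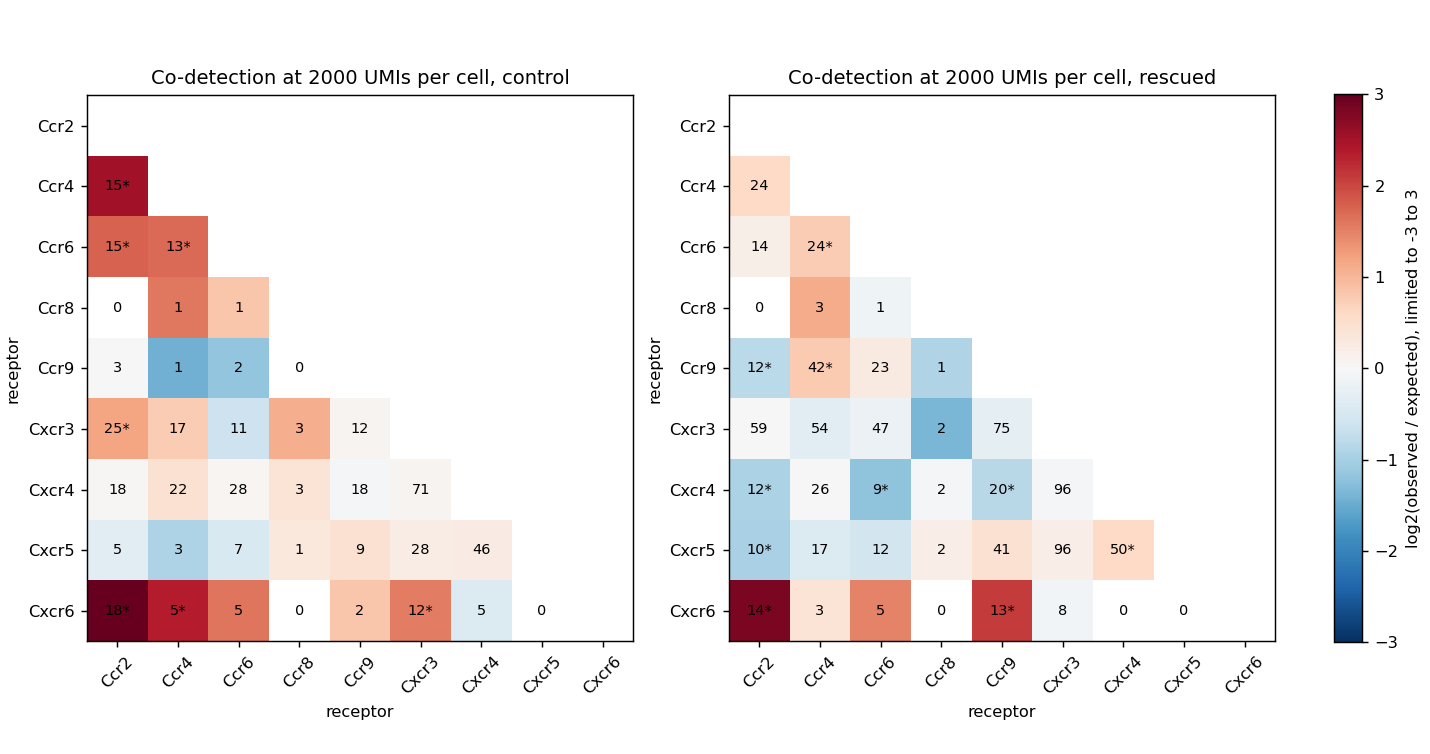
Co-detection of each pair of receptors at 2000 UMIs per cell in control (left) and rescued (right) cells. Numbers are cells with both receptors, colour is the log2 ratio of observed to expected cells (blank where no cell held both), and a star marks an interval that leaves out 1, as for Ccr2 with Cxcr6 (18 and 14 cells).

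To see which Treg cells carry each receptor, both libraries were clustered together without the 9 genes, giving 13 clusters that are described by their leading genes. Cxcr4 was spread over all of them. Ccr2 was narrowly placed: in cluster 10, led by Lgals3, Ccr10, Ube2c, Lmna and S100a4, it was at 270 CPM in control and 405 CPM in rescued cells, and in cluster 4, with Marcks, Mmp9, Asb2 and Gzmb among its leading genes, at 417 and 171 CPM. Cluster 4 also held most Cxcr6, with 58.2% of all its UMIs in control and 67.4% in rescued cells. Ccr9 was highest in cluster 7, led by Plac8, Gbp2b, Hoxb4 and Gm14085, at 169 CPM in control and 373 CPM in rescued cells, where Ccr2 was at 0 and 3.62 CPM and Cxcr6 at 0 and 0.723 CPM. Cxcr5 and Cxcr4 were highest over both libraries in cluster 5, led by Sostdc1, Ier5l, Sccpdh, Cebpa and Tshz2, with 80.7 and 82.7 CPM for Cxcr5 and 193 and 117 CPM for Cxcr4 in control and rescued cells. Ccr6 was highest in cluster 8, led by Ccl4, Shmt1 and Il1r2, in rescued cells (87.3 CPM) and in cluster 4 in control cells (117 CPM). The few Ccr8 UMIs gave 16.9 CPM in control and 11.6 CPM in rescued cells of cluster 8 on 17 UMIs each, 3.90 and 14.5 CPM in cluster 5 on 3 and 17 UMIs, and 9.75 and 30.3 CPM in cluster 12, led by Nr4a3 and Nr4a1, on 2 and 4 UMIs.

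Most receptors were nearly absent from cluster 1, led by Tdrp, Ly6c1, Igfbp4 and Dapl1, which held 1035 control and 63 rescued cells at a median of 3761.5 UMIs. Of its control cells at 2000 UMIs, 0.296% (0.0610 to 0.861) had Ccr2, 0.493% Ccr4, 0.296% Ccr6, 0.887% (0.406 to 1.68) Cxcr3 and 0.0985% Cxcr6. The shares of these receptors over the whole control library were each more than 3-fold higher. By contrast, 17.2% of these cells had Cxcr4, close to its 17.4% over all control cells, 2.86% had Cxcr5 and 2.07% had Ccr9. Cluster 1 gave 26.5% of all Cxcr4 UMIs of the control library but 1.68% of its Cxcr3 UMIs.

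**Figure D4:**
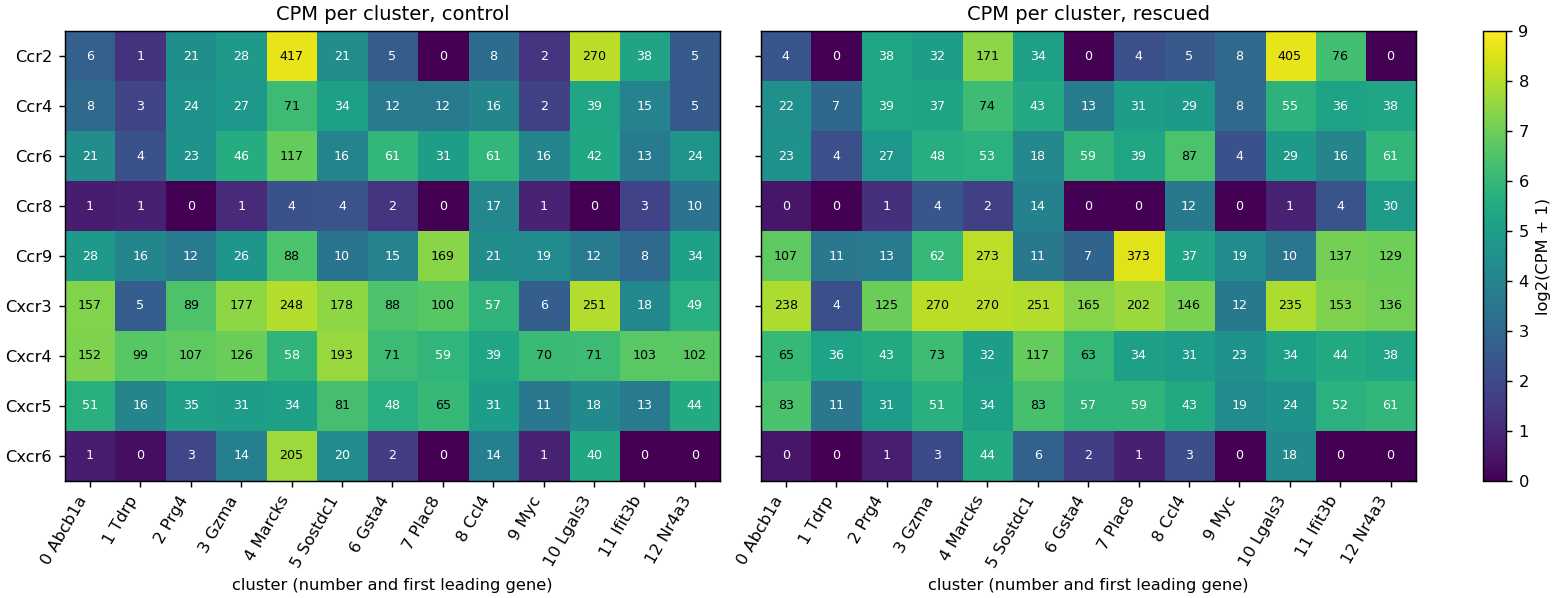
CPM of the 9 receptors (numbers) in each of 13 clusters of the control (left) and rescued (right) library, coloured by log2(CPM + 1); clusters carry their number and first leading gene. Ccr2 and Cxcr6 peak in the Marcks cluster of control cells (417 and 205 CPM), and Ccr9 in the Plac8 cluster of rescued cells (373 CPM).

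The libraries filled the clusters unequally: 5.74% of cluster 1 but 79.1% of cluster 4 came from rescued cells. When each cluster was given the same weight in both libraries, the log2 ratio was 1.28 for Ccr9, 0.62 for Ccr4, 0.56 for Cxcr3, 0.30 for Cxcr5, -1.02 for Cxcr4 and -2.01 for Cxcr6. For Ccr2 (-0.31) and Ccr6 (-0.12) the direction turned. Counted cluster by cluster, the interval lay above 0 for Cxcr3 in 9 of 13 clusters and for Ccr9 in 7, with none below. For Cxcr4 it lay below 0 in 10 of 13, and for Cxcr6 below in 5 of 11, with none above for either.

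In cluster 4 the libraries carried these receptors in different amounts. Among its 115 control and 436 rescued cells, Ccr9 was at 87.5 CPM in control and 273 CPM in rescued cells, a log2 ratio of 1.64 (1.21 to 2.10). Over the same cells Cxcr6 was at 205 and 44.1 CPM (-2.22, -2.63 to -1.81), Ccr2 at 417 and 171 CPM (-1.28, -1.53 to -1.04) and Ccr6 at 117 and 52.7 CPM (-1.15, -1.61 to -0.69). Cxcr3 (0.12, -0.15 to 0.41) and Ccr4 (0.06, -0.46 to 0.61) had intervals that held 0. In shares of cells at 2000 UMIs, the Ccr9 share was 4.39% (1.44 to 9.94) in control and 20.3% (16.6 to 24.4) in rescued cells of this cluster, that of Ccr2 37.7% (28.8 to 47.3) and 18.2% (14.7 to 22.2), and that of Cxcr6 15.8% (9.63 to 23.8) and 5.07% (3.20 to 7.57).

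With the expected number of cells built up cluster by cluster, fewer pairs stood out. Ccr2 with Cxcr6 was still above, 2.13 times in control and 2.38 times in rescued cells, as was Ccr4 with Ccr6 (2.01 and 1.65 times). Only these 2 pairs stayed above in control cells, where Ccr2 with Cxcr3 was at 0.996 times (0.645 to 1.47). In rescued cells Ccr9 with Cxcr6 (2.77 times) and with Ccr4 (1.47 times) also stayed above. The interval of Cxcr4 with Cxcr5 there held 1 (1.34 times, 0.992 to 1.76). Ccr6 with Cxcr4 stayed below in rescued cells (0.466 times), and Ccr4 with Cxcr3 joined it (0.763 times), while the intervals of the other 4 held 1, at 0.579 times for Ccr2 with Ccr9 (0.299 to 1.01), 0.699 for Ccr9 with Cxcr4, 0.665 for Ccr2 with Cxcr4 and 0.776 for Ccr2 with Cxcr5. Ccr6 with Cxcr4 was not below at 1000 UMIs or as counted, as given above. Ccr4 with Cxcr3 in rescued cells was at 1.05 times (0.911 to 1.20) as counted over the whole library. In control cells Ccr6 with Cxcr3 was below within clusters (0.440 times). As counted over the whole control library that pair was above (1.34 times, 1.04 to 1.69).

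Control cells were next split by the tdTomato transcript, which the study used to part cells labelled on postnatal day 14 from cells formed later. The study split on imputed values, with a cutoff whose positive share of control cells matched its flow cytometry. That share was far smaller than at 1 or more UMIs here, so the classes below are not those of the study. With 4 or more UMIs, 468 control cells were positive. With 1 or more UMIs taken as positive, 2287 control cells (median 3930 UMIs) were tdTomato+ and 1347 (median 3508 UMIs) tdTomato-. At this limit 62.9% of control cells and 55.9% of rescued cells were tdTomato+. No library without the reporter gives the share of cells that hold a stray tdTomato UMI, and a labelled cell with little transcript can be counted as negative, so the classes are classes of transcript detection and not of labelled and unlabelled cells. Between them 5 of the 8 receptors with at least 100 UMIs were higher in tdTomato+ cells past 1.5-fold and 1, Ccr9, was lower, where 2.38% and 0.412% of 8733 genes were (2.79% in either direction). The log2 ratios were 1.71 for Cxcr6, 1.42 for Ccr2, 1.15 for Ccr4, 0.65 for Cxcr3 and 0.64 for Ccr6. Ccr9 was at 21.2 CPM in tdTomato+ and 32.7 CPM in tdTomato- cells, a log2 ratio of -0.62 that was -0.26 with tdTomato+ set at 2 or more UMIs and -0.49 at 4 or more, within 1.5-fold at both. Cxcr3 too came within it, at 0.56 and 0.46, and Cxcr6 was at 0.91 and 0.84. Cxcr4 was at 98.0 CPM in tdTomato+ and 97.7 CPM in tdTomato- cells.

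Rescued cells were then compared with tdTomato+ control cells alone. Of the 8 receptors with at least 100 UMIs, Ccr9 (2.37), Cxcr3 (1.17), Ccr4 (1.10) and Ccr2 (0.70) had log2 ratios past 1.5-fold, and Cxcr4 (-0.87) and Cxcr6 (-0.77) were lower past it. Over 9566 genes, 4.04% were higher and 2.34% lower (6.38% in either direction). Cxcr6 was at 4.82 CPM in tdTomato-, 15.8 CPM in tdTomato+ and 9.27 CPM in rescued cells. These comparisons share the tdTomato+ cells, so their ratios are not independent. With tdTomato+ set at 2 or more and at 4 or more UMIs, Ccr2 was at 0.44 and 0.38, no longer past 1.5-fold, and Ccr6 went from 0.31 to 0.014 and -0.23. Ccr9 stayed at 2.30 and 2.55.

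**Figure D5:**
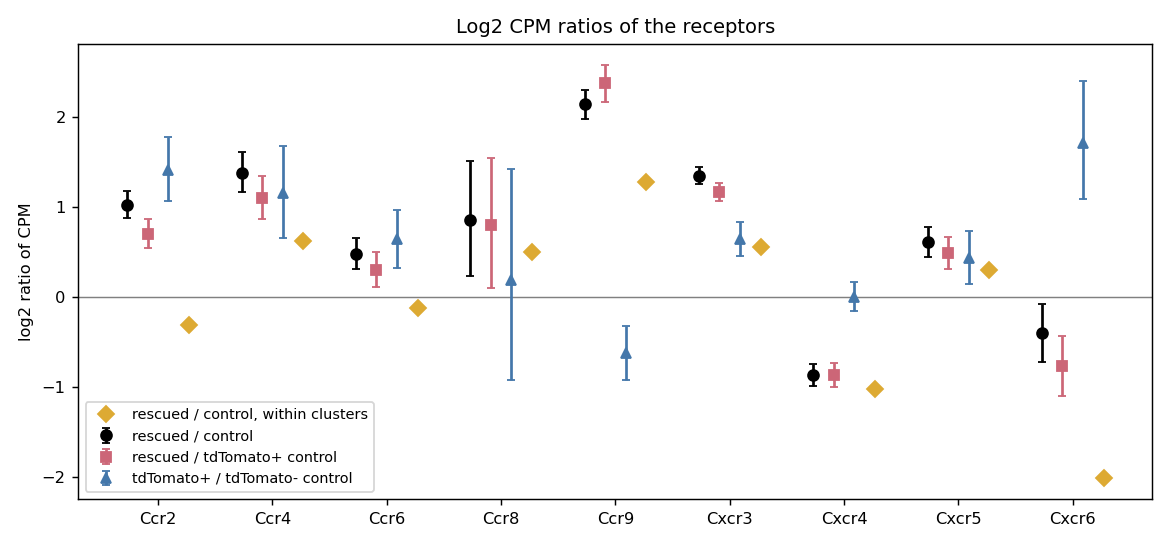
Log2 CPM ratio of each receptor in rescued against all control cells, in rescued against tdTomato+ control cells and in tdTomato+ against tdTomato- control cells (bars are 95% intervals for counting error), and in rescued against control cells with clusters weighted alike (diamonds, no interval). Within clusters Ccr2 sits at -0.31 and Cxcr6 at -2.01, below their pooled values of 1.03 and -0.40.

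Genes that marked receptor-positive cells in both libraries were compared at 2000 UMIs per cell, for the 7 receptors found in at least 50 cells of each. Ccr2-positive cells were set apart most. S100a4, a calcium-binding protein of motile cells, had log2 ratios of 4.17 in control and 3.08 in rescued cells against Ccr2-negative cells, S100a6 3.88 and 2.59, and Klrg1, a marker of terminally differentiated effectors, 3.37 and 2.61. Dzip1 had no UMI in Ccr2-positive cells of either library after thinning, and was at -0.99 and -1.37 as counted. Ccr9-positive cells had more Plac8 (2.46 and 3.20), Lztfl1 (2.34 and 2.09), whose overlap with Ccr9 is given above, and Hoxb4 (2.03 and 1.47). They had less Penk, the enkephalin precursor (-3.28 and -3.03, on 1 and 5 UMIs). Cxcr3-positive cells had more Ccl5 (2.48 and 1.62), Gpm6b (1.45 and 0.67) and Atp2b4 (1.60 and 0.63). They had less Igfbp4 (-3.92 and -3.93, on 7 and 4 UMIs), a leading gene of cluster 1.

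Ccr6-positive cells had more of the decoy interleukin-1 receptor Il1r2 (2.43 and 1.28), of Rragd (1.52 and 1.21) and of the activation factor Irf4 (1.76 and 1.12). Their lowest gene, B3galt6, rested on 0 and 1 UMIs and came to -0.05 in rescued cells as counted. Ccr4-positive cells had more Podnl1 (2.07 and 0.94) and Plcb4 (1.503 and 0.85, or 0.90 and 0.29 as counted). They had less Igfbp4 (-2.95 and -3.71, on 3 and 1 UMIs, or -2.54 and -1.91 as counted). Usp37 (1.32 and 0.84) followed in Ccr4-positive cells at 2000 UMIs and turned to -0.03 in control cells as counted. In Cxcr5-positive cells Sccpdh (1.12 and 1.13), Ube3b (0.76 and 0.78) and Camsap1 (0.92 and 0.74) were the highest. The Ube3b interval held 0 in control cells (-0.0062 to 1.45), and its ratios as counted were 0.32 and 0.28. That of Camsap1 in rescued cells began at 0.0025. Klrg1 had 0 and 3 UMIs in Cxcr5-positive cells (-3.17 in rescued cells). Cxcr4-positive cells had more of the heat shock genes Hspa1a (0.68 and 1.11) and Hspa1b (0.65 and 0.87), which were also lower in the rescued library as a whole, and less of the survival gene Bcl2l1 (-1.76 and -1.42, on 8 and 7 UMIs), which was at -0.57 and -0.74 as counted. Rnf219 (0.68 and 0.64) had intervals that held 0 in both libraries.

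Factors or integrins that textbooks pair with these receptors were looked up in the same thinned cells. Prdm1, which encodes Blimp1, was found in 19.8% of Ccr2-positive and 2.91% of Ccr2-negative control cells and in 22.3% and 9.48% of rescued cells. Maf was found in 84.2% of Cxcr6-positive and 29.4% of negative control cells and in 87.1% and 55.9% of rescued cells. Bcl6, the follicular factor, was found in 9.91% and 3.70% of Cxcr5-positive and negative control cells and in 5.23% and 2.39% of rescued cells. Itgae, the αE integrin CD103, was found in 18.1% (11.3 to 26.8) of Ccr9-positive and 10.3% (9.34 to 11.4) of negative control cells, with overlapping intervals. In rescued cells the Itgae shares were 55.2% and 37.5%. Itgb7, which pairs with Itgae, was slightly less frequent in Ccr9-positive cells (58.1% and 61.2%, then 64.5% and 68.6%), with overlapping intervals.

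Tbx21, which encodes T-bet, was found in 3.10% (1.61 to 5.35) of Cxcr3-positive and 0.691% (0.434 to 1.04) of Cxcr3-negative control cells, and in 1.20% (0.600 to 2.14) and 0.697% (0.406 to 1.11) of rescued cells, where the intervals overlapped. Gata3 was found in 37.0% and 23.6% of Ccr4-positive and negative control cells but in 29.7% and 27.1% of rescued cells. Tcf7 did not part Cxcr4-positive from negative cells, with 37.5% and 36.3% in control cells and, in rescued cells, 54 of 360 positive cells against 14.3% of negative ones. Irf4 was found in 2 of 13 Ccr8-positive control cells and 1 of 19 rescued ones, too few to compare.

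The rest of the chemokine system was read from lists of genes. Among the other chemokine receptors with at least 100 UMIs, Ccr10, a receptor of skin and mucosal epithelium chemokines, had 18 UMIs in control and 146 in rescued cells, a log2 ratio of 3.01. Ccr3 (1.98) and Ccrl2 (0.67) were also higher past 1.5-fold. Ccr7, which brings T cells into lymph nodes, was at 217 CPM in control and 88.4 CPM in rescued cells (-1.30). Cxcr4 and Ccr7 were thus both lower in rescued cells. Of the chemokines that these 9 receptors bind, 3 had enough UMIs, and Cxcl10, a ligand of Cxcr3, was at 24.1 and 64.1 CPM (1.41) with a UMI in 2.97% of control cells and 7.05% of rescued cells. Ccl25, the ligand of Ccr9, was at 16.7 and 16.1 CPM (-0.05). Of chemokines made by T cells, Ccl5 was at 131 and 185 CPM (0.50) and Ccl4 at 6.86 and 4.31 CPM (-0.67, lower past 1.5-fold).

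Of 25 genes of receptor signalling, none lay past 1.5-fold in either direction, where 7.85% of all 9779 genes did. Their median log2 ratio was 0.042, with Rac2 at 1699.8 and 1809.5 CPM and Gnai2, an inhibitory G protein subunit to which these receptors couple, at 874 and 920 CPM. Of 14 other homing and egress genes, Itgae (2.04) and the gut receptor Gpr15 (1.33) were higher, and the exit receptor S1pr1 (-0.98) and its activator Klf2 (-1.09) were lower. Itgb7 (0.26) lay within 1.5-fold. Among the lineage factors, Prdm1 (1.64), Ahr (1.38), Maf (0.87) and Batf (0.63) were higher and Bach2 (-1.67), Tcf7 (-1.41), Bcl6 (-0.68) and Lef1 (-0.68) were lower. Bcl6 was thus lower in rescued cells although Cxcr5, the receptor listed with it, had a ratio above 0. Id3 (-0.46) was within the range. Among the Treg markers Ctla4 (0.87) and Foxp3 (2.53) were higher. Of the B cell markers, Cd22 had a log2 ratio of 0.71 on 39 and 64 UMIs and Cd79b of 0.41, and the summed level of that list was 44.8 CPM in control and 55.2 CPM in rescued cells. The myeloid list was at 167 and 202 CPM, nearly all of it Cst3 (0.26), and the CD8 and NK list at 21.0 and 17.7 CPM, nearly all of it Cd8b1 (-0.12). Their part in the receptor differences was not tested.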

How the data were processed

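Control and rescued Treg cells, 1 library each, were profiled with 10x Genomics 3′ chemistry. The authors deposited a table of raw UMI counts per cell and gene (GRCm38, with Cell Ranger 3.0 and Seurat 3.1.5 named in the submitters' processing notes), which was used here, and a log-normalized table, which was not. Cells were assigned to libraries by barcode prefix, all cells were kept, and 0 columns of other samples were left out. CPM came from counts summed per library. Ratios have conditional exact intervals, counts exact Poisson intervals and shares Clopper-Pearson intervals, all at 95%. PCR copies are collapsed by UMI, and the intervals cover counting error only. Cells were thinned to 2000 UMIs (seed 11) for shares, co-detection and receptor-positive cells. Clusters were made with scanpy 1.11.5 and leidenalg 0.10.2 (2000 variable genes, 30 components, 15 neighbours, resolution 1), leaving out the 9 receptors, TdTomato, Foxp3, and mitochondrial, ribosomal, immunoglobulin and T cell receptor genes. Scrublet, run in scanpy 1.11.5, called 2 control and 0 rescued cells, a share under 0.5% at which a caller has not worked. Doublets were therefore left in, and the highest 3.5% of scores were left out as an alternative.

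Named genes were the 9 receptors, list genes past 1.5-fold with at least 100 UMIs and the 2 most abundant of each list, the 3 highest and 1 lowest genes of receptor-positive cells, up to 5 leading genes per cluster, and the listed receptor partners. Hspa1a, Hspa1b, Jun, Fos, Lztfl1 and Cxcr2 beside Ccr9, Ccr8 and Cxcr4 were also chosen after values were seen. The members and lists were chosen with earlier results of these data known. At the 3′ end (500 bases), no receptor shared a 31-base word with another. Scripts were tested on simulated data. Some items of these lists are not reported here.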

Additional observations from a re-analysis of the deposited data

Results flagged for a closer look

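The ratio between rescued and control cells pointed in opposite ways in different clusters for 2 receptors. Ccr2 had a log2 ratio of 0.84 in cluster 2, led by Prg4, Dapl1, Cd55 and Klf2, and of -1.28 in cluster 4, led by Marcks, Mmp9 and Asb2. Ccr6 had a log2 ratio of 0.52 in cluster 8, led by Ccl4, Shmt1 and Il1r2, and of -1.15 in cluster 4. Each interval left out 0, but with 1 library per group the difference between clusters was not tested.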

How the results depend on the processing

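No paired analysis was possible because the labels give 1 library to each group, and leaving out a library leaves no comparison. Of the main results under each alternative, 99 values stayed close to the reported one, 39 moved and 3 turned direction. With clusters weighted alike, the log2 ratios were -0.31 for Ccr2 and -0.12 for Ccr6 (both turned), 0.62 for Ccr4, 1.28 for Ccr9, 0.56 for Cxcr3, -1.02 for Cxcr4, 0.30 for Cxcr5 and -2.01 for Cxcr6. Shares with 2 or more UMIs as counted had log2 ratios of 1.88 for Ccr4, 2.27 for Ccr9, -1.11 for Cxcr4 and 0.84 for Cxcr5, and that of Cxcr4 at 1000 UMIs was -0.93. At 2-fold, 0 members were lower. Genes past 1.5-fold numbered 1556 with at least 20 UMIs and 2999 with 1 UMI in each library. Pairs above numbered 13 in control and 10 in rescued cells as counted, and 2 in control within clusters. Pairs below numbered 1 in control at 1000 UMIs and 1 within clusters, and in rescued cells 0 at 1000 UMIs, 3 as counted and 2 within clusters. Cells with 2 or more receptors at 1000 UMIs were 3.25% and 6.90%. With tdTomato+ at 4 or more UMIs (468 cells), tdTomato+ against tdTomato- gave 0.84 for Ccr2, 0.46 for Cxcr3, -0.22 for Cxcr4 and 0.84 for Cxcr6, and at 2 or more (1320 cells) -0.26 for Ccr9 and 0.91 for Cxcr6. Rescued against tdTomato+ gave, at 2 or more, 0.44 for Ccr2, 0.84 for Ccr4, 0.014 for Ccr6 and 1.05 for Cxcr3, and at 4 or more 0.38 for Ccr2, 0.66 for Ccr4, -0.23 for Ccr6 (turned), 0.98 for Cxcr3, -0.68 for Cxcr4 and 0.19 for Cxcr5. Usp37 in Ccr4-positive control cells was -0.032 as counted. Without cluster 10, its highest, Ccr2 had a log2 ratio of 0.85, an alternative added after seeing the data. The cause of these shifts was not tested. Scaling by the median ratio moved all log2 ratios by 0.024. Ccr8 rested on 34 and 62 UMIs, under the minimum of 100.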
